A study of Homo sapiens with 11 samples.

Results

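The genes described here encode proteins that copy DNA or that carry a cell from G1 into S phase. They are 42 genes chosen by name for these roles, among 37247 gene identifiers in the deposited table and 14160 that were tested. All 42 were found by Ensembl identifier, and all 42 passed the filter on low values, which asked for at least 1 TPM (transcripts per 1000000, a level scaled by transcript length) in at least 3 of the 6 libraries. RNA sequencing was done on 3 libraries labelled H2AS40-KD, a knockdown of histone H2A that has a serine at residue 40, and on 3 labelled Control-KD, a control knockdown. Both groups are labelled as MDA-MB-231, an established breast cancer cell line kept in DMEM with fetal bovine serum, and the labels give no knockdown reagent, time or clone. The series title asks for the expression profile of knockdown cells. The 5 chromatin immunoprecipitation and input samples of the series were not analysed here.

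DNA replication starts at origins that are first licensed and later fired. The origin recognition complex (ORC), CDC6 and CDT1 load the ring-shaped MCM helicase onto DNA in G1, and geminin (GMNN) blocks CDT1 once S phase has begun. The kinase CDC7 with its partner DBF4 then helps to turn each ring into an active helicase with CDC45 and the GINS complex, and polymerases held by the sliding clamp PCNA copy the opened strands. Many of these genes are targets of E2F transcription factors, which are released from the retinoblastoma protein in G1, so their messages peak around the G1/S boundary. In a culture of mixed cell cycle phases, fewer cells in S phase and less RNA per S-phase cell cannot be told apart.

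The labels name no H2A gene, so the knockdown could not be checked at its target. Of 13 tested canonical H2A genes (symbols starting H2AC) 0 were called, with 3 at an unadjusted p under 0.05 and 1 of these lower. Over all tested genes 1.26% were called and 16.5% had an unadjusted p under 0.05. The H2A genes summed to 223 to 231 TPM in H2AS40-KD libraries and 206 to 223 TPM in Control-KD libraries. Group names are therefore used as labels, and each direction is between labels. Markers of the labelled line were mixed. Vimentin (VIM) averaged 2270 TPM in H2AS40-KD libraries and 2258 TPM in Control-KD libraries, and CD44, AXL and CAV1 were all above 100 TPM in every library, as is usual for MDA-MB-231. The 5 mesenchymal markers, FN1 included, summed to 2879 to 2925 TPM in H2AS40-KD libraries and 2996 to 3008 TPM in Control-KD libraries, and 2 of them fell, where 0.742% of all tested genes did. These were CAV1 (log2 fold change -0.42, limma adjusted p = 0.0173) and FN1 (log2 fold change -0.73, limma adjusted p = 0.0182). Genes of luminal epithelium, listed for this check as low in that line, were also present. All 7 listed were at 1 TPM or more in every library and summed to 4247 to 4308 TPM in H2AS40-KD libraries and 4293 to 4356 TPM in Control-KD libraries, with 0 of 7 called. Most of this sum was the keratin gene KRT8, which averaged 3549 TPM in H2AS40-KD libraries and 3587 TPM in Control-KD libraries. The lowest was PGR, at means of 1.80 TPM in H2AS40-KD libraries and 1.70 TPM in Control-KD libraries. GATA3 was at 436 to 459 TPM in H2AS40-KD libraries and 460 to 471 TPM in Control-KD libraries. E-cadherin (CDH1) averaged 58.6 ± 1.52 TPM in H2AS40-KD libraries and 60.2 ± 4.11 TPM in Control-KD libraries (SD, n = 3 each). EPCAM was between 163 and 174 TPM and the oestrogen receptor gene ESR1 between 12.3 and 21.2 TPM over the 6 libraries. What these levels mean for the identity of the cells was not tested. Of 7 blood markers 5, and of 5 fibroblast markers 4, were under 1 TPM in every library. Control-KD replicate 3 stood apart on the first principal component, which held 29.6% of the variance, at 31.2 where the other libraries lay between -12 and 0.784. TPM sum to 1000000 in each library and keep no read depth, so no counting interval can be given. Separate cultures are not stated for the replicates, and p-values cover only how far these libraries vary, possibly for technical reasons.

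Promoter sequences are shown first because they carry a feature that many of these genes share. Motifs were not used to choose the genes. The genes were chosen for roles in which many E2F targets are known, so a high E2F share follows in part from the choice. The RefSeq promoter table (GRCh38.p14) held 250 bases before and 50 after each annotated start for 38 of the 42 genes. An E2F motif, searched as TTTCCCGC, TTTGGCGC, TTTCGCGC and TTTGCCGC on both strands, was found in 21 of these 38 genes (55.3%), against 1090 of all 27305 genes in that table (3.99%). The CCAAT box, searched on both strands, was found in 23 of the 38 (60.5%) and in 39.7% of all genes in the table. Genes differ in the number of annotated starts, base composition was not matched, and the table is not limited to tested genes, so these shares are descriptions. The stretches below are the 60 bases just before the start of 6 genes, those with an E2F motif inside that stretch among the 12 that have the smallest p overall or in their role, 5′ to 3′ on the gene's own strand, with the motif in capitals.
CDT1: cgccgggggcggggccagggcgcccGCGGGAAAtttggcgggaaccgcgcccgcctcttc
GINS2: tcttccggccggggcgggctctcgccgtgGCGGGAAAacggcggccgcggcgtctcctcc
TYMS: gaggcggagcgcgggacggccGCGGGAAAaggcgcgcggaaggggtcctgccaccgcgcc
PCNA: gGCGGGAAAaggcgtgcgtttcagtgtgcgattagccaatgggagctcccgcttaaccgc
MCM7: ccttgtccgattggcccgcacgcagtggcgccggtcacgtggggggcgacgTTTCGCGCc
E2F1: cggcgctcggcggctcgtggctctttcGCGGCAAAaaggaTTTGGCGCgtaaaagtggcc
The CDT1 stretch is chr16:88803729-88803788 on the plus strand, and its 8 capitals run from position -35 to position -28, where -1 is the base just before the start. The same 8 letters stand at -31 to -24 in GINS2 (chr16:85688955-85689014, minus strand), at -39 to -32 in TYMS (chr18:657593-657652, plus strand) and at -59 to -52 in PCNA (chr20:5126623-5126682, minus strand). The MCM7 stretch is chr7:100101398-100101457 and the E2F1 stretch chr20:33686386-33686445, both on the minus strand. MCM2, MCM6 and MCM3 each had an E2F motif elsewhere in their window, and MCM2 had overlapping matches from 3 to 14 bases after the start. A motif match does not show that a factor binds there.

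**Figure D1:**
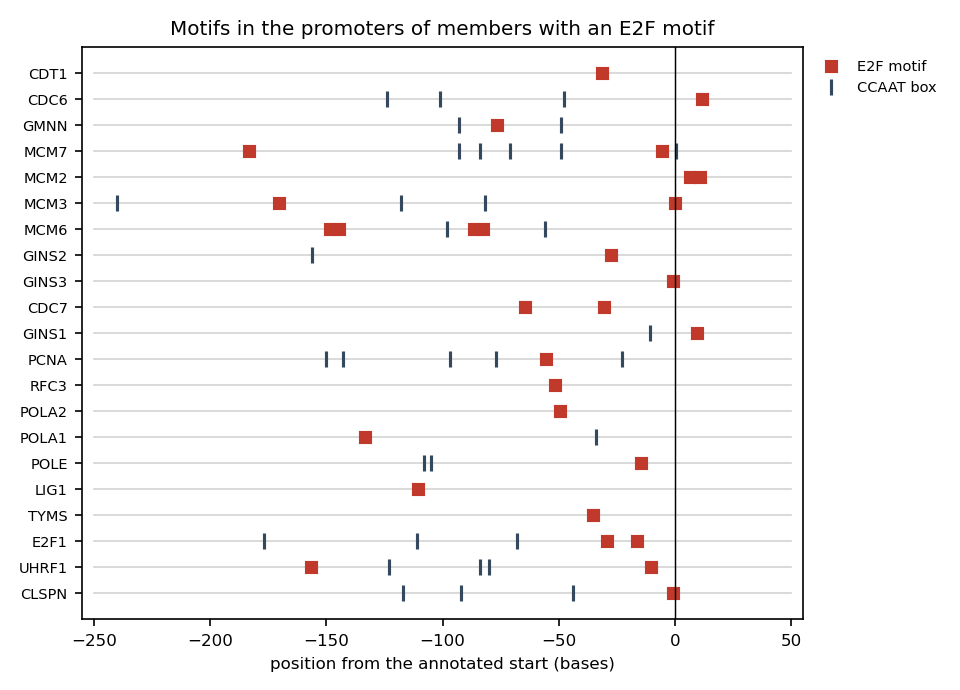
Positions of E2F motifs (squares) and CCAAT boxes (bars) in the 300 bases around the annotated start of the 21 members that hold an E2F motif, in bases from the start; genes with several annotated starts show the matches of all of them on 1 line. Matches lie on both sides of the start, and CDT1, GINS2 and TYMS each have theirs between -39 and -24.

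None of the 42 genes was called in H2AS40-KD libraries against Control-KD libraries. By limma on log2(TPM + 1), calling a gene at a Benjamini-Hochberg adjusted p under 0.05, 0 of 42 were called where 1.26% of the table's tested genes were (178 of 14160). The smallest adjusted p was that of MCM7, at 0.0551. At an unadjusted p under 0.05 there were 7 of 42 (16.7%), 6 higher and 1 lower. The background was 16.5% of all tested genes, with 8.76% higher and 7.75% lower, so this share is not a result about these genes. The values of the groups did not overlap in 8 members (19%), 6 higher and 2 lower, against 24.2% of all tested genes, 12.9% higher and 11.3% lower. Neither this share nor the 0 of 42 called is a result about these genes. The median log2 fold change was 0.03 over the 42 and 0.01 over all tested genes, and the median size of the fold change was 0.06 over the 42 and 0.10 over all tested genes.

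For 40 of 42 members the 95% interval of the fold change from limma lay inside -0.5 to 0.5 on the log2 scale. The 2 exceptions were MCM2, whose interval reached up to 0.52, and POLA2, whose interval reached down to -0.62. From its centre to either end the interval spanned 0.07 for MCM7, 0.40 for POLA2 and 0.15 at the median. The median size of the fold change, 0.06, was smaller than this median. The bound of 0.5 is a description, and the share of all tested genes inside it is not given. It does not mark unchanged genes. The called genes SAMHD1 (-0.44 to -0.20) and TOP2A (-0.32 to -0.14), which are not members, also lay inside it. Fold changes of 29 members were under 0.1 in size, against 48.6% of all tested genes. Mean levels ran from 11.8 TPM (CCNE1) to 287 TPM (MCM7), with a median of 45.1 TPM against 19.9 TPM over all tested genes, and the coefficient of variation between replicates had a median of 4.68% in H2AS40-KD libraries and 4.92% in Control-KD libraries.

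**Figure D2:**
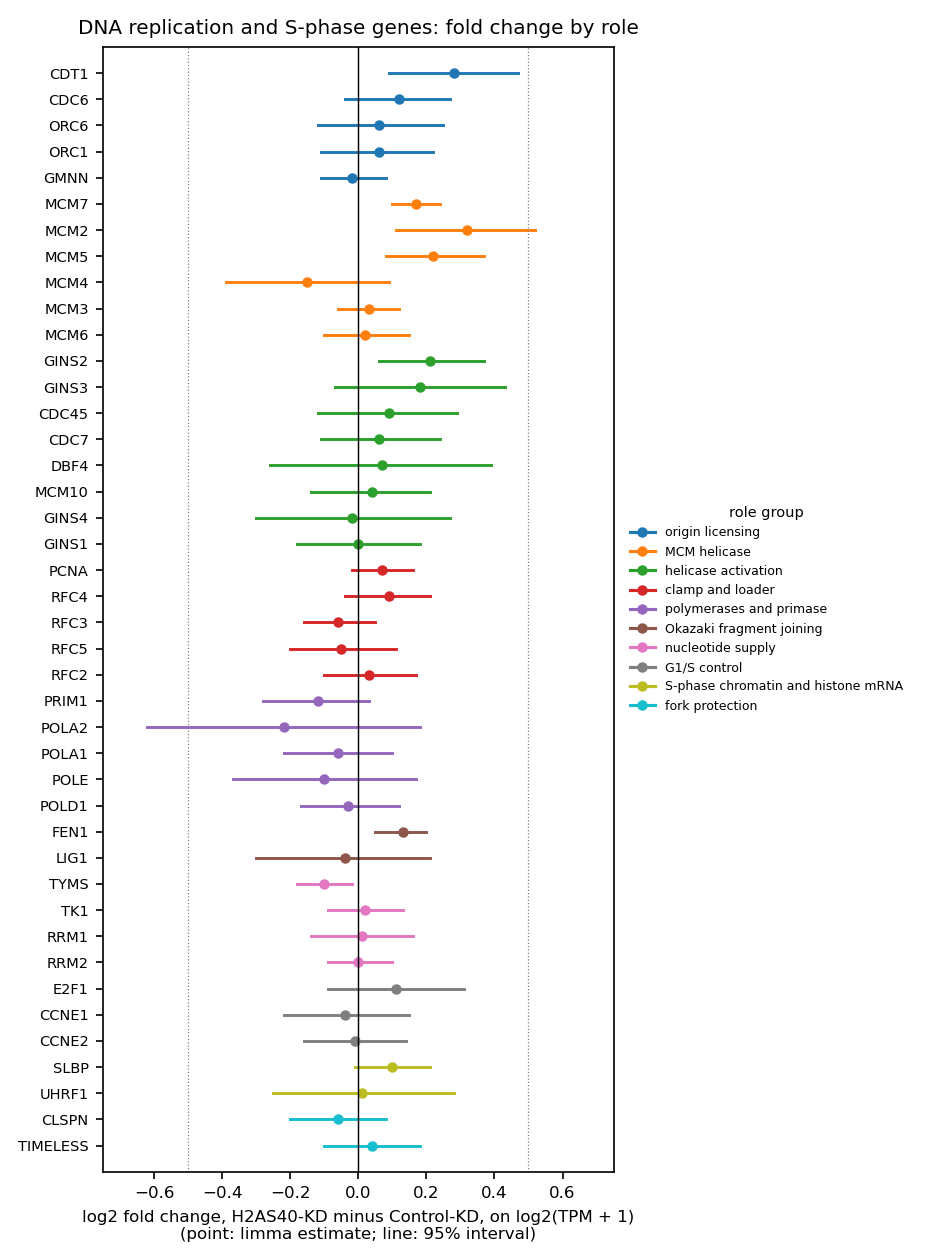
Log2 fold change of each of the 42 genes, H2AS40-KD minus Control-KD on log2(TPM + 1), with its 95% interval from limma (n = 3 libraries per group); colours mark role groups and dotted lines mark -0.5 and 0.5. Points of 29 genes lie within 0.1 of zero, and the intervals of 40 stay between the dotted lines.

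**Figure D3:**
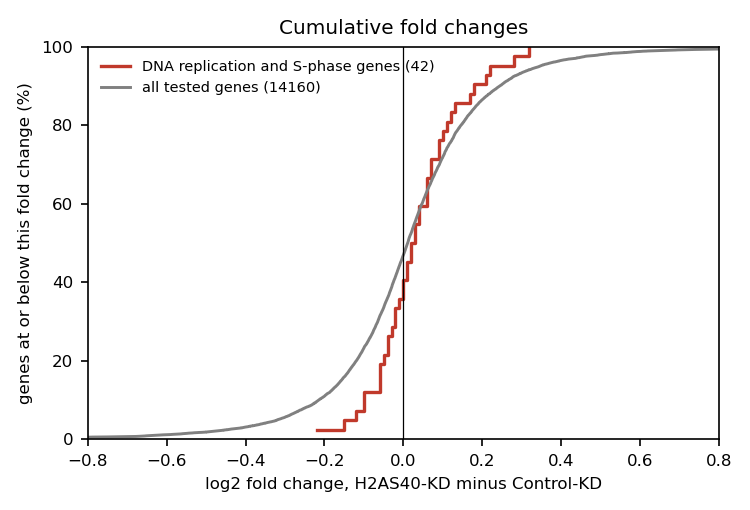
Cumulative share of genes (%) at or below each log2 fold change, H2AS40-KD minus Control-KD, for the 42 replication and S-phase genes and for all 14160 tested genes; the axis is limited to -0.8 to 0.8. The 42 genes run from -0.22 to 0.32, and their median is 0.03 against 0.01 for all tested genes.

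Among the 5 origin licensing genes, CDT1 had the smallest p. CDT1, which brings the MCM ring to ORC, had 81.6, 83.9 and 84.6 TPM in H2AS40-KD libraries and 68.5, 76.6 and 60.9 TPM in Control-KD libraries. The groups did not overlap, and Control-KD replicate 3 was the lowest library. CDT1 averaged 83.4 ± 1.55 TPM in H2AS40-KD libraries and 68.7 ± 7.86 TPM in Control-KD libraries (SD, n = 3 each). Its log2 fold change was 0.28 ± 0.0800 (SE), and limma gave an adjusted p of 0.160. Leaving out Control-KD replicate 3 gave CDT1 a log2 fold change of 0.20 (limma adjusted p = 0.179). GMNN, its inhibitor, averaged 121 ± 1.12 TPM in H2AS40-KD libraries and 123 ± 5.01 TPM in Control-KD libraries (SD, n = 3 each), and the 95% interval of its fold change ran from -0.11 to 0.08. As a description made after the values were seen and not tested, the level of CDT1 relative to GMNN was 0.678, 0.693 and 0.691 in H2AS40-KD libraries and 0.583, 0.624 and 0.478 in Control-KD libraries. CDC6, the ATPase that acts with CDT1, had 68.9, 81.1 and 74.9 TPM in H2AS40-KD libraries and 71.7, 67.7 and 67.5 TPM in Control-KD libraries. ORC6 averaged 44.0 TPM in H2AS40-KD libraries and 42.0 TPM in Control-KD libraries, and ORC1 averaged 18.2 TPM in H2AS40-KD libraries and 17.5 TPM in Control-KD libraries. The values of GMNN, CDC6, ORC6 and ORC1 overlapped between the groups. The group median log2 fold change was 0.06, or 0.11 without H2AS40-KD replicate 3 and likewise without Control-KD replicate 1.

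The 6 MCM subunits, which form a ring with 1 copy of each, had log2 fold changes from -0.15 to 0.32, 5 positive and 1 negative. Whether the subunits differ from each other was not tested. MCM7 had 310, 306 and 296 TPM in H2AS40-KD libraries and 272, 269 and 271 TPM in Control-KD libraries. Every H2AS40-KD library was above every Control-KD library, and replicates were close in both groups. MCM7 averaged 304 ± 7.49 TPM in H2AS40-KD libraries and 271 ± 1.63 TPM in Control-KD libraries (SD, n = 3 each), a difference of 12.3% of the Control-KD mean and a log2 fold change of 0.17 ± 0.0298 (SE). The limma adjusted p of 0.0551 missed the threshold, and over 16 alternative settings it ran from 0.0452 to 0.205. MCM7 passed in 2 of them, a filter at 5 TPM and a fit on the genes with a known span. Its gene lies on chromosome 7 from 100092728 to 100101397, holds the microRNA genes MIR25, MIR93 and MIR106B and overlaps AP4M1. As the labels do not say whether strand was kept, reads of overlapping genes may not have been told apart.

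MCM2, which also binds histones H3 and H4, had 142, 121 and 129 TPM in H2AS40-KD libraries and 105, 115 and 94.3 TPM in Control-KD libraries. The groups did not overlap, and Control-KD replicate 3 was again the lowest. The log2 fold change was 0.32 ± 0.0853 (SE), the highest of the 42, and limma gave an adjusted p of 0.147. Leaving out Control-KD replicate 3 gave 0.24 (limma adjusted p = 0.204). MCM5 had 66.4, 65.2 and 75.4 TPM in H2AS40-KD libraries and 58.8, 58.6 and 58.9 TPM in Control-KD libraries. Its groups did not overlap either, and H2AS40-KD replicate 3 was the highest library (log2 fold change 0.22 ± 0.0616, SE, limma adjusted p = 0.148).

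The other 3 subunits overlapped between the groups, and they are described here because they complete the ring. MCM4 had 171, 156 and 140 TPM in H2AS40-KD libraries and 162, 158 and 197 TPM in Control-KD libraries, so that Control-KD replicate 3 was the highest library for this subunit. Its log2 fold change was -0.15 (limma adjusted p = 0.516), or -0.05 without Control-KD replicate 3 and -0.08 without H2AS40-KD replicate 3. MCM3 averaged 144 ± 4.88 TPM in H2AS40-KD libraries and 141 ± 2.04 TPM in Control-KD libraries, and MCM6 averaged 42.1 ± 1.73 TPM and 41.4 ± 1.35 TPM (SD, n = 3 each). The summed level of the 6 subunits was 874, 840 and 820 TPM in H2AS40-KD libraries and 778, 783 and 807 TPM in Control-KD libraries, a description with no test. Message levels, which TPM scale by length, were far from equal within the ring. MCM7 made up 35.5 to 36.4% of the sum in H2AS40-KD libraries and 33.5 to 35.0% in Control-KD libraries. MCM6, the lowest subunit, made up 4.89 to 5.10% in H2AS40-KD libraries and 5.12 to 5.36% in Control-KD libraries. MCM4 made up 18.4 ± 1.24% in H2AS40-KD libraries and 21.9 ± 2.27% in Control-KD libraries (SD, n = 3 each). A share depends on all 6 subunits, so a lower share, as for MCM6, need not mean a lower level.

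**Figure D4:**
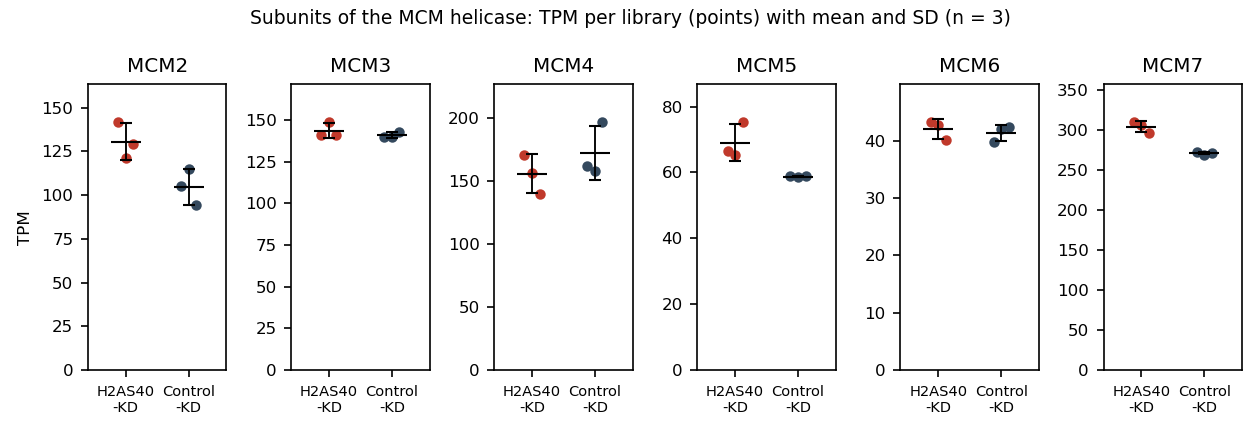
TPM of the 6 MCM subunits in each H2AS40-KD library (left in each panel) and each Control-KD library (right), with mean and SD (n = 3 each); every axis starts at 0 and has its own scale. MCM7, MCM2 and MCM5 do not overlap between the groups, and MCM3, MCM4 and MCM6 do.

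Of the 8 genes that turn the loaded ring into a helicase, GINS2 had the smallest p. GINS2, a subunit of the 4-part GINS complex, had 28.1, 30.5 and 26.8 TPM in H2AS40-KD libraries and 25.1, 23.7 and 24.5 TPM in Control-KD libraries. The groups did not overlap, and the log2 fold change was 0.21 ± 0.0660 (SE) with a limma adjusted p of 0.192. The gene overlaps GSE1 on chromosome 16. The other GINS subunits overlapped between groups, with GINS3 at 16.6 and 14.5 TPM, GINS4 at 24.3 and 24.7 TPM and GINS1 at 21.3 and 21.3 TPM as means of H2AS40-KD and Control-KD libraries. CDC45, which joins MCM and GINS in the active helicase, averaged 33.8 ± 1.39 TPM in H2AS40-KD libraries and 31.9 ± 3.69 TPM in Control-KD libraries (SD, n = 3 each). MCM10, a factor that acts at firing and is not part of the ring, averaged 42.1 and 41.0 TPM in H2AS40-KD and Control-KD libraries. The kinase CDC7 averaged 22.0 TPM in H2AS40-KD libraries and 21.0 TPM in Control-KD libraries. Its activator DBF4 had 51.4, 47.4 and 58.7 TPM in H2AS40-KD libraries and 53.9, 40.4 and 57.1 TPM in Control-KD libraries, a wide spread within each group. The median log2 fold change of the 8 was 0.06, with values from -0.02 to 0.21, and it was 0.03 without Control-KD replicate 2.

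None of the 5 clamp and loader genes reached an unadjusted p under 0.05 by limma. PCNA, the sliding clamp, had 213, 205 and 216 TPM in H2AS40-KD libraries and 201, 194 and 208 TPM in Control-KD libraries. The groups overlapped, and the log2 fold change was 0.07 ± 0.0388 (SE) with a limma adjusted p of 0.427, or 0.04 without Control-KD replicate 2. The loader subunits RFC2, RFC3, RFC4 and RFC5 had log2 fold changes from -0.06 to 0.09. RFC3 was the subunit whose groups did not overlap, with 44.9, 44.5 and 44.3 TPM in H2AS40-KD libraries and 47.8, 45.8 and 45.6 TPM in Control-KD libraries, at a limma adjusted p of 0.570. The interval of its fold change, -0.16 to 0.05, included zero.

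All 5 polymerase and primase genes had a negative log2 fold change, as did 6645 of all 14160 tested genes. By limma 0 of 5 reached an unadjusted p under 0.05. Of 15 further genes for polymerases, the clamp loader and related factors, 8 had a positive and 7 a negative log2 fold change. PRIM1, the primase subunit that makes the RNA primer, had 38.0, 40.2 and 38.2 TPM in H2AS40-KD libraries and 39.1, 42.6 and 45.4 TPM in Control-KD libraries. H2AS40-KD replicate 2 was above Control-KD replicate 1, so the groups overlapped (log2 fold change -0.12 ± 0.0654, SE, limma adjusted p = 0.405). Leaving out Control-KD replicate 3 gave PRIM1 -0.07, and leaving out Control-KD replicate 1 gave -0.18. POLA2, the accessory subunit of polymerase alpha, varied most within groups, with 22.5, 24.5 and 33.9 TPM in H2AS40-KD libraries and 27.7, 29.0 and 37.3 TPM in Control-KD libraries. The catalytic subunits POLA1, POLE and POLD1 had log2 fold changes of -0.06, -0.10 and -0.03. The sign was not stable for POLE, at 0.01 without Control-KD replicate 3, nor for POLD1, at 0.02 without Control-KD replicate 2.

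FEN1, the nuclease that trims flaps from Okazaki fragments, had 140, 138 and 135 TPM in H2AS40-KD libraries and 127, 124 and 127 TPM in Control-KD libraries. The groups did not overlap, and the log2 fold change was 0.13 ± 0.0332 (SE) with a limma adjusted p of 0.138. LIG1, the ligase that seals the same fragments, had 32.8, 43.6 and 38.9 TPM in H2AS40-KD libraries and 36.9, 38.5 and 43.2 TPM in Control-KD libraries. Its values overlapped and its log2 fold change of -0.04 turned positive without H2AS40-KD replicate 1 (0.06) and without Control-KD replicate 3 (0.02).

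Of the 4 genes for nucleotide supply, TYMS stood below the controls. TYMS, thymidylate synthase, had 110, 113 and 112 TPM in H2AS40-KD libraries and 119, 123 and 117 TPM in Control-KD libraries. It was the 1 member lower at an unadjusted p under 0.05, with a log2 fold change of -0.10 ± 0.0357 (SE) and a limma adjusted p of 0.242, and its gene on chromosome 18 overlaps ENOSF1. An unadjusted p under 0.05 was reached by TYMS in 2 of 6 fits that each left out 1 library, against 6 of 6 for CDT1, MCM7, MCM2, MCM5 and FEN1 and 5 of 6 for GINS2. All of these genes were picked by their p with all 6 libraries, and the fits share libraries. The counts show dependence on single libraries and are no independent support. The subunits of ribonucleotide reductase, which makes deoxyribonucleotides, overlapped between the groups. RRM2 averaged 213 ± 6.84 TPM in H2AS40-KD libraries and 213 ± 7.31 TPM in Control-KD libraries (SD, n = 3 each), with an interval of the fold change from -0.09 to 0.10. RRM1 averaged 93.7 and 92.9 TPM, and thymidine kinase 1 (TK1), of the salvage route, averaged 180 and 178 TPM, in H2AS40-KD and Control-KD libraries.

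The G1/S regulators also overlapped between groups. E2F1, the transcription factor, had 40.1, 39.0 and 40.2 TPM in H2AS40-KD libraries and 38.5, 40.2 and 32.1 TPM in Control-KD libraries. Control-KD replicate 3 was low, and without it the log2 fold change was 0.02 where it was 0.11 ± 0.0849 (SE) with all 6 libraries (limma adjusted p = 0.564). Leaving out Control-KD replicate 2 gave E2F1 0.17. The cyclins CCNE1, at 11.6 and 11.9 TPM, and CCNE2, at 29.1 and 29.3 TPM as means of H2AS40-KD and Control-KD libraries, had log2 fold changes of -0.04 and -0.01.

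SLBP, which binds the stem-loop of replication-dependent histone messages, had 102, 106 and 109 TPM in H2AS40-KD libraries and 103, 95.7 and 97.4 TPM in Control-KD libraries (log2 fold change 0.10 ± 0.0455, SE, limma adjusted p = 0.346). The groups overlapped through Control-KD replicate 1. UHRF1, which guides maintenance DNA methylation behind the fork, had 47.4, 46.3 and 44.7 TPM in H2AS40-KD libraries and 50.2, 50.6 and 37.6 TPM in Control-KD libraries. Control-KD replicate 3 was the lowest of the 6, and the log2 fold change of 0.01 (equal means of 46.1 TPM in both groups) became -0.13 without it (limma adjusted p = 0.295). CLSPN, the checkpoint mediator claspin, had 36.6, 37.9 and 36.1 TPM in H2AS40-KD libraries and 36.8, 37.7 and 41.3 TPM in Control-KD libraries (log2 fold change -0.06 ± 0.0600, SE, limma adjusted p = 0.657), and without Control-KD replicate 3 the log2 fold change of CLSPN was -0.01. TIMELESS, of the fork protection complex, averaged 31.8 ± 1.72 TPM in H2AS40-KD libraries and 31.0 ± 0.697 TPM in Control-KD libraries (SD, n = 3 each).

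**Figure D5:**
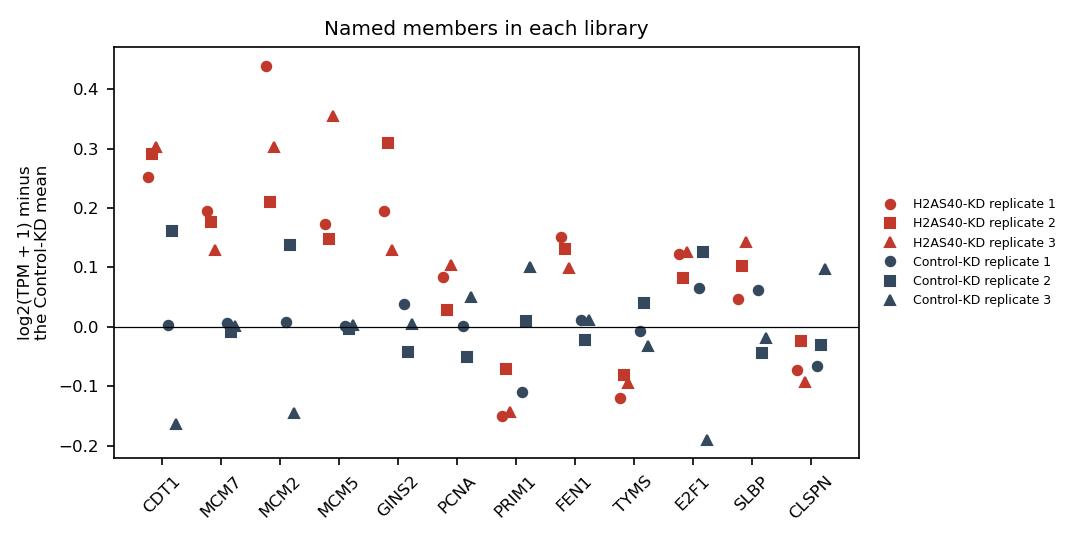
log2(TPM + 1) of 12 genes in each library, minus the mean of the 3 Control-KD libraries, with H2AS40-KD at the left of each gene and Control-KD at the right; symbols mark replicate numbers. CDT1, MCM7, MCM2, MCM5, GINS2 and FEN1 lie above all Control-KD libraries in every H2AS40-KD library, TYMS lies below them, and Control-KD replicate 3 is the lowest Control-KD library for CDT1, MCM2, TYMS and E2F1.

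Within Control-KD, replicate 3 held the highest value for 22 of the 42 genes and the lowest for 12. The medians over the 42 genes, relative to the Control-KD mean on the log2 scale, were 0.02, 0.04 and -0.01 in H2AS40-KD replicates 1, 2 and 3 and 0.00, -0.01 and 0.02 in Control-KD replicates 1, 2 and 3. Without Control-KD replicate 3, 0 of 42 were called by limma and 10 had an unadjusted p under 0.05, against 7 with all libraries. The share of all tested genes under that threshold in the same fit is not given. The rise is therefore not a result about these genes.

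A further 58 genes of replication and G1/S control were also tested. By limma 0 rose and 1 fell, where 0.742% of all tested genes fell, and 8 had an unadjusted p under 0.05, 4 higher and 4 lower (13.8%, against 16.5% of all tested genes). The median log2 fold change was 0.02. The gene that fell was SAMHD1, which breaks down deoxyribonucleotides, with 48.5, 48.2 and 47.2 TPM in H2AS40-KD libraries and 60.2, 57.2 and 63.3 TPM in Control-KD libraries. The groups did not overlap, and the log2 fold change was -0.32 (limma adjusted p = 0.0407). Its adjusted p ran from 0.0317 to 0.162 over 16 alternative settings, and it was not called when any 1 library was left out. Of 24 mitotic genes, whose messages peak later in the cycle, 1 fell and 0 rose, where 0.742% of all tested genes fell. A negative log2 fold change was found in 20 of the 24, with a median of -0.11, and in 6645 of all 14160 tested genes. By limma 10 of the 24 had an unadjusted p under 0.05, all lower (41.7%, against 7.75% of all tested genes lower and 16.5% in either direction). Groups did not overlap in 15 of the 24 mitotic genes, all lower in H2AS40-KD libraries, where 11.3% of all tested genes did so in that direction. The mitotic list was chosen with earlier results of these data known, and its genes share a cell cycle phase. Its counts are therefore descriptions and not independent support. The gene that fell was TOP2A, topoisomerase II alpha, with 92.7, 94.8 and 91.0 TPM in H2AS40-KD libraries and 111, 106 and 110 TPM in Control-KD libraries (limma adjusted p = 0.0453, not called when any 1 library was left out). Whether replication genes and mitotic genes differ in their response was not tested.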

How the data were processed

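The authors deposited TPM per gene, 1 column for each library, and every column sums to 1000000. How TPM were computed was not given in the sources used here. Per the submitters' processing notes, hg38, Bowtie2 and MACS2 were used, with no role stated. Symbols were matched for 34436 of 37247 identifiers. Genes reaching 1 TPM in 3 or more libraries were tested on log2(TPM + 1), a scale that understates changes of low genes, with limma 3.58.1 in R 4.3.3 (two-sided, eBayes with an intensity trend, Benjamini-Hochberg adjustment over 14160 genes). The step was tested on simulated data. Gene positions are from a RefSeq table of GRCh38.p14, matched by symbol, as were promoters. No pair of libraries shared identical TPM in more than 0.113% of tested genes. Alternatives covered pseudocount, filter, scaling, variance trend, gene span, replicate block and leaving out each library. The members and lists were chosen with earlier results of these data known. The rule named 12 members, those with an unadjusted p under 0.05 and the one with the smallest p in each role group, and the called genes of the pathway and mitosis lists. All other members, including those given per library (CDC6, MCM4, DBF4, RFC3, POLA2, LIG1 and UHRF1), were described after their values were seen. Markers were named to check the cell line label, whether called or not.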

Additional observations from a re-analysis of the deposited data

How the results depend on the processing

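Over all tested genes 178 were called, against 98 with no filter on low values, 10 with eBayes without a trend and 5 to 156 with 1 library left out (156 without Control-KD replicate 3). With the replicate number as a block 0 were called by limma. Whether same-numbered libraries were prepared together is not stated. Deviations from the group means correlated at -0.0101, -0.0642 and -0.00154 for same-numbered libraries. For libraries with different numbers the correlations ran from -0.0571 to 0.0728. The numbers were not taken as pairs, though with 3 libraries per group this check cannot exclude pairing. The block left 0 of 42 replication genes called. Of these genes, 1 (MCM7) was called with a filter at 5 TPM (limma adjusted p = 0.0452) and 1 (MCM7) among genes with a known span (0.0467), an alternative added after the data were seen; in the other settings 0 were. Unadjusted p-values under 0.05 among the 42 numbered 5 to 10 with 1 library left out, with no share of all tested genes given beside them. With 1 library left out, role group medians ran from 0.06 to 0.11 for origin licensing, 0.09 to 0.11 for MCM helicase, 0.03 to 0.10 for helicase activation, 0.00 to 0.07 for clamp and loader, -0.12 to -0.05 for polymerases and primase, -0.01 to 0.09 for Okazaki fragment joining, -0.02 to 0.02 for nucleotide supply, -0.04 to 0.02 for G1/S control, -0.02 to 0.10 for S-phase chromatin and -0.04 to 0.02 for fork protection. Of 672 member values over 16 settings, 34 changed sign, in 17 genes with fold changes of at most 0.10 in size. The 12 genes chosen by rule had 0 of these. They were chosen by their p in the same libraries, so this was largely fixed in advance. Under quantile normalization the values that changed sign were 0.00 for MCM6 and TK1, -0.01 for RRM1 and RRM2 and -0.02 for UHRF1. RRM2 was at 0.00 under median-of-ratios scaling, and with the gene-span trend removed GINS1 was at 0.01 and TK1 at -0.01. With 1 library left out, log2 fold changes ran from -0.05 to 0.01 for GMNN, 0.00 to 0.04 for MCM3, 0.00 to 0.06 for MCM6, -0.08 to 0.16 for DBF4, -0.03 to 0.08 for MCM10, -0.12 to 0.08 for GINS4, -0.04 to 0.05 for GINS1, -0.02 to 0.07 for RFC2, -0.21 to 0.01 for POLE, -0.07 to 0.02 for POLD1, -0.14 to 0.06 for LIG1, -0.01 to 0.06 for TK1, -0.05 to 0.06 for RRM1, -0.02 to 0.03 for RRM2, -0.07 to 0.01 for CCNE1, -0.04 to 0.02 for CCNE2 and -0.13 to 0.08 for UHRF1. The cause was not tested. TPM hold no depth, so counting error is unknown.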
